A study of Mus musculus with 40 samples.

Results

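The genes described here are Hmgcs1, Idi1, Fdps, Fdft1, Sqle, Lss and Cyp51, 7 autosomal genes of cholesterol synthesis, taken by name from the 24499 genes of the count table and the 17280 genes of the table of normalised levels. Both tables hold all 7. The name under which these genes were set apart also speaks of cholesterol uptake, but each of the 7 is an enzyme of synthesis, so the genes of uptake are given from a separate list. RNA was measured in 40 single cells from 13 female blastocysts, obtained by natural mating and, per the labels, without embryo culture, which carry 1 genome of each strain because C57BL/6J females were crossed with CAST/EiJ males. GEO's labels give the stage of each cell. The class and the embryo come from the supplementary sample table of the study, where cells were classed by their stage and by the lineage factors they expressed. At E3.5 there were 3 trophectoderm (TE) cells from 3 embryos and 14 inner cell mass (ICM) cells from 7 embryos. At E4.0 there were 13 primitive endoderm (PrE) cells from 3 embryos and 10 epiblast (Epi) cells from 2 embryos. Inner cells were freed by immunosurgery, a short incubation with antiserum and complement that kills the TE. No animal was treated or mutated, and each blastocyst gave between 1 and 16 of the cells.

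Cells make cholesterol from acetyl-CoA in a long chain of enzymes. The early enzymes build mevalonate and from it isoprenoid units, which also serve to anchor proteins in membranes, and the later ones join these units into squalene, close the rings and trim lanosterol to cholesterol. The transcription factor Srebf2 switches on most genes of the chain when membranes hold little sterol. In the mouse embryo sterols are needed for membranes and for the modification of Hedgehog ligands, and the PrE gives rise to the visceral endoderm, a tissue known for handling lipids and lipoproteins for the embryo.

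The promoters of the genes are shown first, because the genes are known as a group for their common response to sterols. RefSeq windows of GRCm38.p6, from 250 bases before to 50 bases after the start site, were matched by symbol for 4 of the 7 genes (Hmgcs1, Idi1, Lss and Cyp51). The letters TCACNCCAC, a form of the sterol regulatory element, were searched on both strands and were found in the window of Hmgcs1 and in 1.24% of 32851 windows. The letters CCAAT, where the factor NF-Y binds, were found on either strand in all 4 windows and in 37.4% of all windows, and GGGCGG, a GC box, in all 4 and in 35.7% of all windows. A match describes the letters of these windows and does not show that a factor binds. The start sites of RefSeq lie inside the gene bounds of GENCODE for Idi1, Lss and Cyp51. That of Hmgcs1 lies less than 50 bases before its bounds, so all 4 windows overlap the bounds of their gene. Each run below reads 5′ to 3′ along the strand of the gene, with the matched letters in capitals (ATTGG is CCAAT on the opposite strand), and of several CCAAT matches in Hmgcs1 the one nearest to the start site is given.
Hmgcs1, sterol element, chr13:119690204-119690233, plus strand: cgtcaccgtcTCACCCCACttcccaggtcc
Hmgcs1, CCAAT box, chr13:119690294-119690323, plus strand: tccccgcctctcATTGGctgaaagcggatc
Idi1, CCAAT box, chr13:8885549-8885578, plus strand: tgcctccagctgATTGGcgagcccgggcat
Lss, CCAAT box, chr10:76531531-76531560, plus strand: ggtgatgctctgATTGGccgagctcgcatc
Cyp51, CCAAT box, chr5:4104709-4104738, minus strand: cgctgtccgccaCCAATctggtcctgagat

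In GENCODE on GRCm38 the 7 genes lie on 6 chromosomes. Hmgcs1 is at chr13:119690379-119708260 and Idi1 at chr13:8885501-8892451, both on the plus strand. Fdps is at chr3:89093588-89101959 and Fdft1 at chr14:63145150-63179578, both on the minus strand. Sqle is at chr15:59315077-59331192 and Lss at chr10:76531588-76557138 on the plus strand, and Cyp51 is at chr5:4081145-4104746 on the minus strand. Fdft1 overlaps Ctsb and Cyp51 overlaps Akap9 on the opposite strand, Hmgcs1, Idi1 and Lss each overlap an antisense or unclassified model there, and Fdps overlaps Gm43738 and a small nuclear RNA on its own strand. The strand setting of the counting is not given in the sources used here, so reads of these overlaps cannot be told apart from reads of the genes. Sqle overlaps no other gene.

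The total count per cell ran from 1019112 to 12833051, with a median of 8769414. It was under 4000000 in 4 cells, 1 of the ICM and 3 of the PrE, and those 3 came from embryo 14. All TE cells and 3 ICM cells had been made for an earlier study of the group. Raw counts were summed over the cells of each embryo and class, which gave 15 sums, and the embryo is the replicate in every test. Cells of more than 1 class came only from embryo 4 (TE and ICM) and embryo 14 (PrE and Epi). The markers of each class were checked as the mean of log2(RPRT + 1), where RPRT is the authors' level, the reads of a gene divided by its retrotranscribed length and by the depth of the cell. The 10 PrE markers stood at 3.61 to 6.30 in PrE cells and at 0 to 1.93 in Epi cells, with Sox17 and Foxa2 at 0 in every Epi cell. The 10 Epi markers stood at 5.71 to 7.04 in Epi cells and at 1.27 to 3.01 in PrE cells, and the 8 TE markers at 6.43 to 7.08 in TE cells. ICM cells overlapped these ranges in part, with TE markers at 1.40 to 5.59.

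The genes stood highest in the PrE cells of embryo 14, the blastocyst that gave cells of both E4.0 lineages. The summed RPRT of the 7 genes, a level per length, ran from 664 to 1776 in its 7 PrE cells with a median of 1178, and from 174 to 541.5 in its 9 Epi cells with a median of 241.5. The classes did not overlap, and the ratio of the medians was 4.88. The other PrE embryos were not alike: the 2 cells of embryo 15 stood at 1166 and 43.6, and the 4 cells of embryo 16 at 635, 207, 148 and 95.0. The Epi cell of embryo 17 stood at 227. ICM cells ran from 75.3 to 631 with a median of 294, and TE cells stood at 128, 241.5 and 257. In embryos 15 and 16 the median of the 6 PrE cells was 177.5, below that of the Epi cells of embryo 14.

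**Figure D1:**
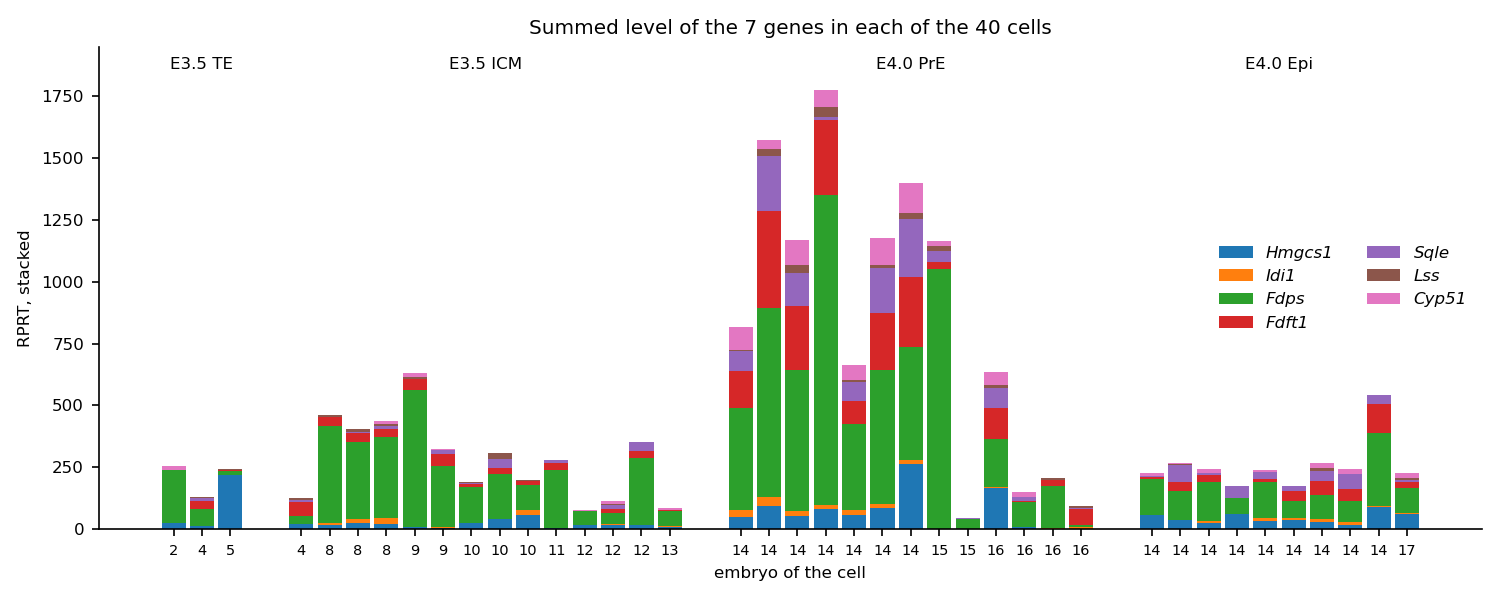
Level (RPRT, linear axis from 0) of the 7 genes stacked in each of the 40 cells, ordered by class and by the embryo named under each bar. The 7 PrE cells of embryo 14 reach 664 to 1776 and the 9 Epi cells of that embryo 174 to 541.5, whereas 4 of the 6 PrE cells of embryos 15 and 16 lie under 250.

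Embryo 14 allowed both lineages to be set side by side within a blastocyst, step by step. Hmgcs1, which makes HMG-CoA at the entry of the pathway, had a median RPRT of 82.9 in its PrE cells (49.9 to 262) and of 35.9 in its Epi cells (18.4 to 88.1). Its ranges overlapped, and 2 of 7 PrE cells lay above the highest Epi cell. Idi1, the isomerase that readies the isoprenoid unit for chain growth, had medians of 19 (15.8 to 32.9) and 9.11 (0 to 11). Fdps, which builds farnesyl diphosphate, the last intermediate shared with protein prenylation, had medians of 542 (349 to 1253) and 116 (64.5 to 295). For Idi1 and Fdps every PrE cell was above every Epi cell. Fdft1, squalene synthase and the entry to sterols proper, had medians of 259 (92.9 to 393) and 35.3 (0.218 to 114), and 6 of 7 PrE cells lay above all Epi cells.

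For Sqle, squalene epoxidase and a rate-limiting step of the sterol branch, the medians were 132 (11.2 to 238) and 37.2 (4.27 to 69.4), again with 6 of 7 PrE cells above all Epi cells. Lss, the cyclase that closes the rings to lanosterol, had medians of 23.2 (6.83 to 40.6) and 1.05 (0 to 8.85), with 5 of 7 PrE cells above all Epi cells. Cyp51, the demethylase that takes lanosterol onwards, had medians of 90.6 (37.6 to 122) and 8.04 (0 to 22.8), and its classes did not overlap. The ratio of the medians was 2.31 for Hmgcs1, 2.09 for Idi1, 4.65 for Fdps, 7.35 for Fdft1, 3.55 for Sqle, 22 for Lss and 11.3 for Cyp51. Within this blastocyst the 2 smallest ratios belonged to steps before Fdps, and the 2 largest to the last steps followed here. The ratio of Lss divides by an Epi median of 1.05, close to the RPRT limit of 1 for an expressed gene. In the edgeR fit over embryos described below, the fold of PrE over Epi was largest for Fdps (5.22), with 4.14 for Cyp51 and 3.5 for Lss. The fold was again smallest for Hmgcs1 (1.47) and Idi1 (2.5).

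In all, 3 of 7 genes (Idi1, Fdps and Cyp51) did not overlap between the cells of embryo 14, against 0.989% of all 13644 genes with RPRT over 1 in at least 2 cells. Among the 3 shallow PrE cells were the lowest values of Sqle and Lss. When these cells were left out, an alternative chosen after seeing the data, 6 of 7 genes did not overlap, all but Hmgcs1, against 2.1% of genes. These cells share an embryo, so their separation describes that blastocyst and carries no test. Of 29 other genes of the pathway with such levels, 1 also separated, Stard4, a carrier of cholesterol between membranes, at 0.856 to 62.5 against 0 to 0.520.

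**Figure D2:**
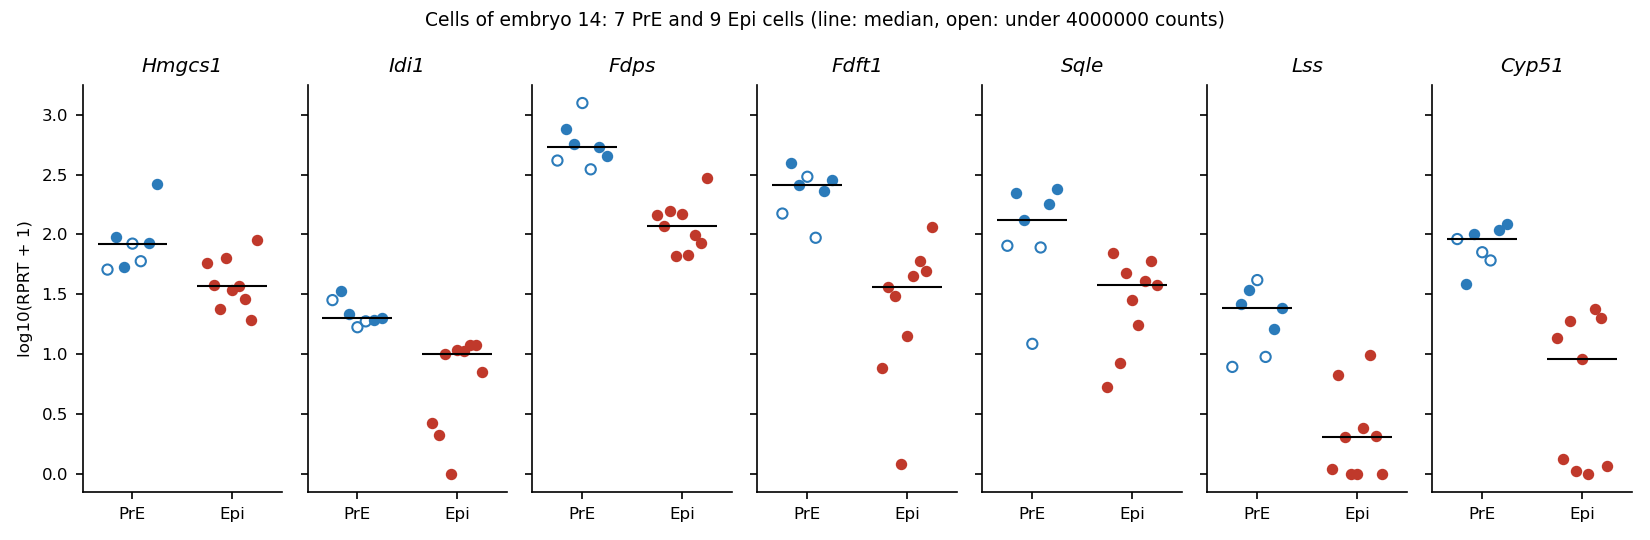
Level of each gene, as log10(RPRT + 1), in the 7 PrE cells and 9 Epi cells of embryo 14, with the median as a line and the 3 cells under 4000000 counts as open circles. Idi1, Fdps and Cyp51 do not overlap between the classes, and Hmgcs1 overlaps most.

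Over embryos, the question was whether the pathway stood higher in PrE than in Epi. Levels are CPM, the counts of each sum scaled to a common library size with edgeR's trimmed means. Fdps stood at 643, 1097 and 166 CPM in PrE embryos 14, 15 and 16 and at 133 and 110.6 CPM in Epi embryos 14 and 17. Cyp51 stood at 316, 68 and 62.7 CPM in PrE and at 32.9 and 39.1 CPM in Epi. For both genes each PrE sum was above each Epi sum, and the PrE sum of embryo 14 was the highest for Cyp51 but not for Fdps. In CPM such a separation held for 2 of 7 genes, against 13% of all genes tested. On mean RPRT per embryo both genes overlapped. Fdps stood at 118 in PrE embryo 16 and at 130.4 in Epi embryo 14. Cyp51 stood at 10.4 and 18.1 in PrE embryos 15 and 16 and at 21.6 in Epi embryo 17.

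Sqle stood at 407, 102 and 61.3 CPM in the 3 PrE sums and at 71.4 and 14.9 CPM in the Epi sums, so that only embryo 16 fell below the Epi sum of embryo 14. Fdft1 stood at 674, 79.7 and 154 CPM in PrE and at 100.3 and 57.3 CPM in Epi, and embryo 15 was the PrE sum inside the Epi range. Lss stood at 125, 91.3 and 34.6 CPM in PrE and at 9.51 and 38.3 CPM in Epi, and here the Epi cell of embryo 17 was above the PrE sum of embryo 16. Idi1 and Hmgcs1 were the least even. Idi1 stood at 46.6, 1.52 and 7.07 CPM in PrE and at 11.1 and 3.59 CPM in Epi. Hmgcs1 stood at 289, 0.722 and 78.1 CPM in PrE and at 92.0 and 74.6 CPM in Epi, so that its lowest and its highest value at E4.0 were both in PrE.

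**Figure D3:**
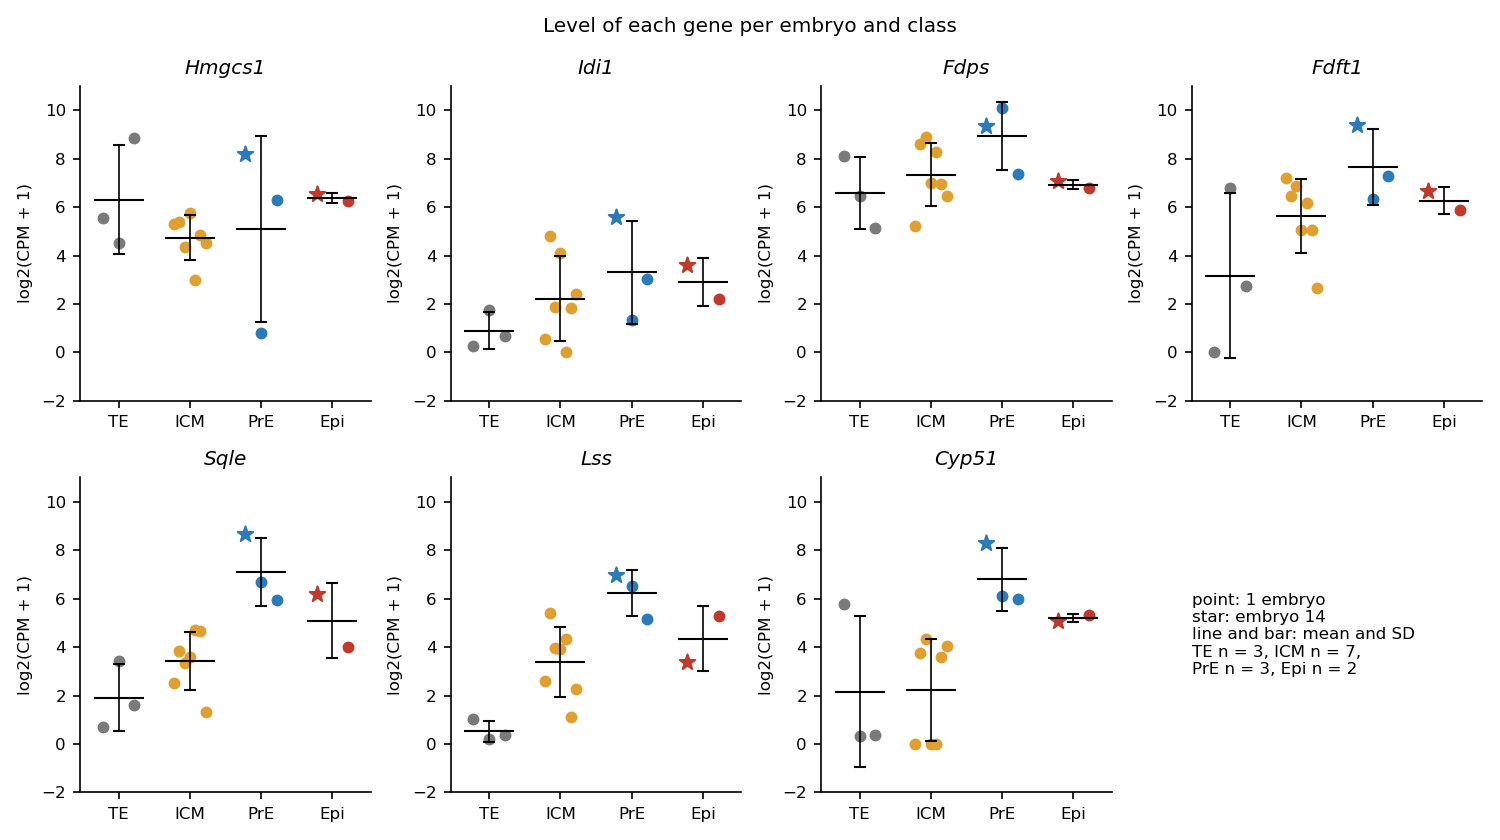
Level of each gene, as log2(CPM + 1), with a point for each embryo and class, a star for embryo 14, and the mean and SD as line and bar (n = 3 TE, 7 ICM, 3 PrE and 2 Epi). The PrE star is the highest point of its class for every gene but Fdps, and the SD of PrE is widest for Hmgcs1.

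In edgeR's quasi-likelihood test on all classes, all 7 genes had a positive log2 fold change of PrE over Epi, as did 53.2% of all genes. Hmgcs1 turned negative in limma-voom and on the RPRT scale. In edgeR 0 of 7 passed an adjusted p (Benjamini-Hochberg) of 0.05, against 0.0% of 12599 genes. The log2 fold change was 2.38 for Fdps (SE 1.09), 2.14 for Sqle (SE 1.39), 2.05 for Cyp51 (SE 2.33), 1.94 for Fdft1 (SE 1.62), 1.81 for Lss (SE 1.47), 1.32 for Idi1 (SE 2.16) and 0.56 for Hmgcs1 (SE 1.41). Adjusted p-values in this fit ran from 0.637 for Fdps to 1 for Hmgcs1, and 1 of 7 genes, Fdps, had an unadjusted p under 0.05, as did 7.66% of all genes. The median of the 7 was 1.94 and that of all genes 0.11, whereas on log2(RPRT + 1), averaged over the cells of an embryo and fitted with limma, they were 0.52 and -0.14. DESeq2 called 0 of the 6 genes to which it gave an adjusted p, Cyp51 having none (3.67% of all), edgeR on these 2 classes alone 0 of 7 (0.604%) and limma-voom with embryo as a block 0 of 7 (2.71%). In the edgeR fit of all classes the SE was larger than the fold change itself for Hmgcs1, Idi1 and Cyp51. On the 2 classes alone, with 3 sums against 2, this held for Hmgcs1 (0.57, SE 1.32) and Idi1 (1.34, SE 1.71). Cyp51 there had 2.07 (SE 0.85) and Fdft1 1.96 (SE 0.87). Without embryo 14 the median of the 7 was 0.74, that of all genes 0.39, and Hmgcs1 changed sign, to -0.92. Embryo 14 also held the 3 shallow PrE cells, and without cells under 4000000 counts the median of the 7 was 2.01.

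ICM is the tissue from which both E4.0 lineages arise, and the summed levels of Sqle and Cyp51 stood above it in every PrE embryo. Sqle ran from 1.47 to 25.3 CPM in the 7 ICM sums with a median of 11.2, and all PrE sums were above that range. Its log2 fold change of PrE over ICM was 3.90 (SE 0.93). Cyp51 ran from 0 to 18.9 CPM in ICM with a median of 11, with no read in the sums of embryos 4, 10 and 11, and all PrE sums were above it too. Its log2 fold change was 4.17 (SE 1.57). These 2 of 7 genes did not overlap in the CPM of the sums, against 2.67% of all genes. Single cells did overlap. In the 6 PrE cells of embryos 15 and 16 the RPRT of Sqle ran from 0.934 to 84.3 (median 9.68), and in ICM cells from 0.891 to 37.3 (median 5.2). That of Cyp51 ran from 0.127 to 52.0 (median 9.59) in these PrE cells and from 0 to 17.3 (median 0.175) in ICM cells.

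Lss ran from 1.19 to 40.9 CPM in ICM (median 14.1) and had a log2 fold change of 2.57 (SE 0.98). Fdft1 ran from 5.39 to 146 CPM (median 70.3), with 2.12 (SE 1.07), and Hmgcs1 from 6.92 to 53.3 CPM (median 27.8), with 2.04 (SE 0.99). Fdps ran from 36.3 to 469 CPM (median 126), with 1.52 (SE 0.71), and Idi1 from 0 to 26.7 CPM (median 2.65), with 1.28 (SE 1.49). These 5 genes overlapped between PrE and ICM.

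In the edgeR fit 0 of 7 genes passed in PrE over ICM, against 0.0% of all genes, and 4 of 7 (Sqle, Cyp51, Lss and Fdps) had an unadjusted p under 0.05, as did 9.21% of 12599 genes. The adjusted p of Sqle was 0.162, that of Cyp51 0.505. The call of Sqle depended on the tool. DESeq2, which gave Cyp51 no adjusted p, called 1 of the other 6 genes, Sqle (3.23% of all genes), limma-voom 2 of 7, Sqle and Cyp51 (1.99%), and limma-voom with embryo as a block the same 2 (1.92%). The median of the 7 was 2.12 and that of all genes -0.05. On log2(RPRT + 1) they were 0.89 and -0.24, and Sqle had 1.56 in place of 3.90. Without embryo 14 the median of the 7 was 1.51 and that of all genes -0.26, the log2 fold change of Sqle 2.67 and that of Idi1 -0.81.

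**Figure D4:**
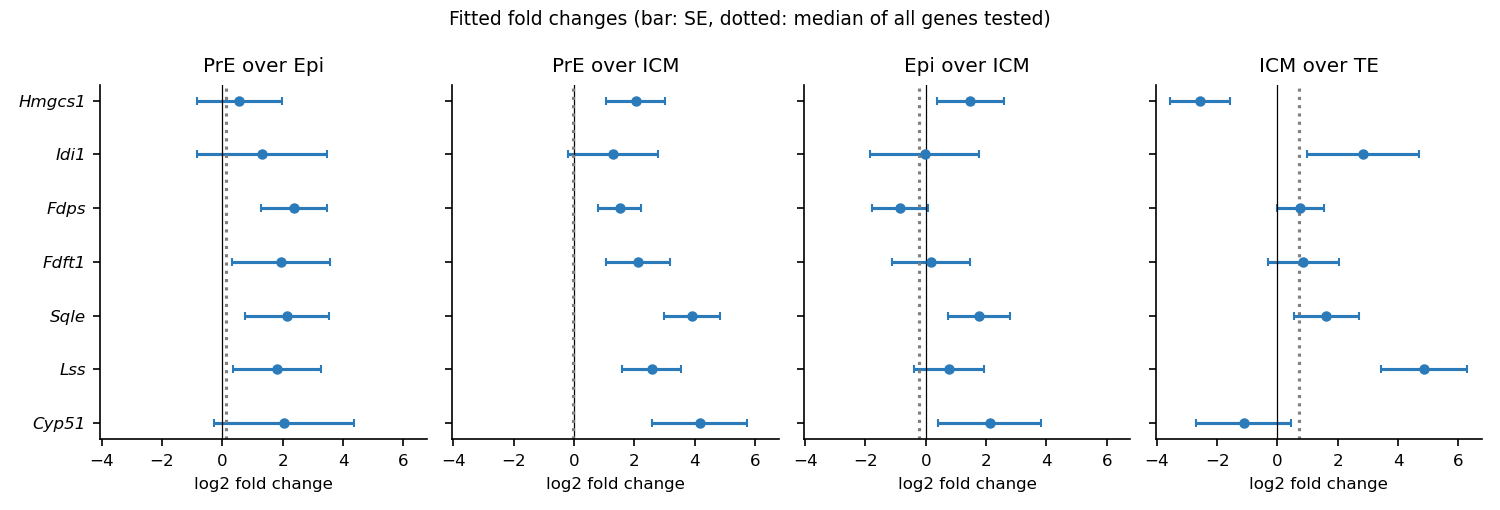
Fitted log2 fold change of the 7 genes in the 4 comparisons of classes, with the SE as bars and the median of all 12599 genes as a dotted line. All 7 genes lie right of 0 in PrE over Epi and in PrE over ICM (in limma on RPRT Hmgcs1 falls left of 0 in both), with Sqle and Cyp51 farthest from the ICM, and the genes spread to both sides in Epi over ICM and in ICM over TE.

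Between Epi and ICM the fold changes had both signs, and 44.5% of all genes tested had a positive value. Of the 7 genes, 5 had a positive log2 fold change of Epi over ICM, or 6 with DESeq2's size factors, which brought Idi1 to 0.0036, the largest being 2.12 for Cyp51 (SE 1.70), 1.76 for Sqle (SE 1.02) and 1.48 for Hmgcs1 (SE 1.12). Fdps had -0.86 (SE 0.92), Idi1 -0.04 (SE 1.82), Fdft1 0.18 (SE 1.30) and Lss 0.76 (SE 1.16). Both Epi sums were above all ICM sums for Cyp51 and for Hmgcs1, 2 of 7 genes against 6.05% of all. On mean RPRT Cyp51 overlapped, at 9.0 in Epi embryo 14 and 9.08 in ICM embryo 9. In edgeR 0 of 7 genes passed, against 0.00794% of all genes, with 0 of 7 at an unadjusted p under 0.05, against 7.27% of all genes. Limma-voom called 0 of 7 and DESeq2 0 of 6, without Cyp51. The comparisons with Epi, PrE and ICM share their sums, so they are not independent of each other.

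At E3.5 the members differed in direction between ICM and TE. Hmgcs1 stood at 45.4, 22.1 and 461 CPM in the TE cells of embryos 2, 4 and 5, with a log2 fold change of ICM over TE of -2.56 (SE 0.99). The cell of embryo 5 alone was far above the ICM, and without it the fold change was -0.19. Lss stood at 1.02, 0.137 and 0.299 CPM in TE, from 5, 1 and 1 reads, and every ICM sum was above these, as for 1 of 7 genes against 5.18% of all. On mean RPRT Lss overlapped, at 2.17 in TE embryo 5 and 0.845 in ICM embryo 12. Its log2 fold change in the edgeR fit was 4.86 (SE 1.43).

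Cyp51 stood at 53.6, 0.274 and 0.299 CPM in TE, so that a single cell carried nearly all of its reads, and its log2 fold change of -1.12 (SE 1.57) became 4.65 without embryo 2. Fdps stood at 274, 86.3 and 34.4 CPM, Fdft1 at 0, 109 and 5.68 CPM, Sqle at 0.613, 9.59 and 2.09 CPM, and Idi1 at 0.204, 2.33 and 0.598 CPM. These 4 genes overlapped between TE and ICM, with fold changes of 0.75 (SE 0.78), 0.86 (SE 1.19), 1.62 (SE 1.07) and 2.83 (SE 1.86), where the median of all genes was 0.70. In edgeR 0 of 7 genes passed, against 4.23% of all genes, with adjusted p-values of 0.0564 for Lss and 0.13 for Hmgcs1, and 2 of 7 had an unadjusted p under 0.05, as did 24.6% of all genes. DESeq2 called 2 of 6 (Cyp51 had no adjusted p), Hmgcs1 and Lss (25.6% of all genes), edgeR with the size factors of DESeq2 called Hmgcs1 (13.7%), and edgeR without embryo 2 called Lss (7.72%). All TE cells came from the earlier study, so class and series of origin cannot be told apart for most of this contrast.

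Ordered by mean CPM, 6 of the 7 genes were highest in PrE and Hmgcs1 was highest in TE. This order rested in part on single sums: without the TE cell of embryo 5 the mean of Hmgcs1 in TE was 33.7 CPM and all 7 genes were highest in PrE, and without PrE embryo 14 the mean of Idi1 in PrE was 4.3 CPM, below ICM, and 5 of 7 were highest in PrE. Hmgcs1 followed the order TE (176), PrE (123), Epi (83.3) and ICM (29.9). Fdps followed PrE (635), ICM (221), TE (132) and Epi (122), and Fdft1 followed PrE (302), Epi (78.8), ICM (69.7) and TE (38.4). Sqle, Lss and Idi1 were lowest in TE, at 4.10, 0.486 and 1.04, while Cyp51 was lowest in ICM, at 8.27. No pair of classes tested passed in edgeR for any of the genes, and the SD within a class often exceeded the mean, as for Hmgcs1 in PrE (149, n = 3) and in TE (247, n = 3).

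Per length, Fdps made up most of the signal in 2 classes. It held 54.4% of the mean summed RPRT in PrE cells, 74.5% in ICM cells, 49.1% in Epi cells and 47.2% in TE cells. Fdft1 came next in PrE with 18.0%, against 9.34% in ICM, and Sqle took 10% in PrE against 3.92% in ICM. Hmgcs1 took 7.93% in PrE, 17.1% in Epi and 40.4% in TE, where most of it came from the cell of embryo 5. Idi1, Lss and Cyp51 each took under 7% in every class.

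Across the 13 PrE cells the genes varied together, with all 21 pairs at a positive Spearman rho over cells and a median rho of 0.72 (0.357 to 0.857). Leaving out embryo 14, 20 of 21 pairs were positive over the remaining 6 cells, with a median of 0.60. In the 10 Epi cells the median rho was 0.0788 (-0.758 to 0.564) and in the 14 ICM cells 0.121 (-0.420 to 0.552). These values describe cells that share embryos and depth, and differences between the classes were not tested. Over the PrE cells the summed level had a rho of 0.0659 with the total count, 0.452 with the PrE markers and -0.47 with the Epi markers. These pooled values mix embryos. In the same order, rho was -0.0357, -0.0901 and 0.214 over the 7 cells of embryo 14. Over the 6 cells of embryos 15 and 16 it was 0.486, 0.486 and -0.657. The lowest PrE cell, at 43.6 in embryo 15, had the lowest PrE marker level (3.61) and the highest Epi marker level (3.01) of the 13. Without that cell, an alternative added after seeing the data, edgeR again called 0 of 7 genes in PrE over Epi and in PrE over ICM. In ICM cells the summed level had a rho of 0.578 with the Epi markers, -0.503 with the PrE markers and -0.57 with the TE markers. The part of cell identity in these levels was not tested.

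The allelic ratio, the paternal share of the reads on variants, tells whether both copies were read in a cell at RPRT over 4. In the PrE cells of embryo 14, 34 of 36 ratios of the 7 genes lay between 0.15 and 0.85 (94.4%), where 57.2% of the ratios of all autosomal genes did. The share follows the level: among values at RPRT over 100, 20 of 20 ratios of the genes and 87.7% of those of autosomal genes were in that range. Fdps ran from 0.44 to 0.642 in these 7 cells and Fdft1 from 0.329 to 0.632, so that both alleles contributed to their high levels. In the PrE cells of embryos 15 and 16, where levels were lower, 9 of 21 ratios (42.9%) lay in the range, against 47.3% of all autosomal genes. The paper set a minimum of reads on variants for a gene to be informative. The exact number of reads behind each ratio is unknown, so no interval can be given.

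Hmgcs1 was read mainly from the maternal copy in the Epi cells of embryo 14. There its ratio had a median of 0 and a maximum of 0.212 (8 cells), at RPRT values of 18.4 to 88.1. In the PrE cells of that embryo it had a median of 0.399, from 0.0588 to 0.435 (4 cells). The other genes of these Epi cells had medians of 0.274 for Fdps (9 cells), 0.454 for Fdft1 (7 cells), 0.464 for Sqle (8 cells), 0.363 for Cyp51 (5 cells) and 0.158 for Lss (2 cells), and 53.8% of the ratios of the genes lay between 0.15 and 0.85, against 51.6% of those of all autosomal genes. Idi1 had a ratio in 1 of the 40 cells only, an ICM cell. The maternal lean of Hmgcs1 was not seen in Epi alone. In ICM its ratio had a median of 0.176, from 0 to 0.818 (8 cells), and 4 of these lay between 0.15 and 0.85. The single ratio of Hmgcs1 in TE was 0. Over the Epi cells of both embryos its maximum was 0.4 (9 cells). All cells came from the same direction of the cross, so the maternal copy is always the copy of the mother's strain. Parent of origin and strain therefore cannot be told apart in these ratios.

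The rest of the pathway was followed with a list of 32 genes, 29 of which were tested. Of 12 further enzymes of synthesis, 11 had a positive log2 fold change of PrE over Epi, with a median of 1.94, and 12 of 12 of PrE over ICM, with a median of 2.22. In edgeR 0 of 12 passed in either. Of all genes tested, 53.2% had a positive value in PrE over Epi and 48.3% in PrE over ICM. The enzymes share the same few sums, so their signs are not independent. Acat2, which feeds the pathway with acetoacetyl-CoA, stood at 196, 275 and 92.4 CPM in PrE and at 58.3 and 62.6 CPM in Epi, above both in each embryo, with a log2 fold change of 1.63 (SE 1.04). Mvk, mevalonate kinase, had 2.28 (SE 1.40) and stood at 90.8, 137 and 26.7 CPM against 21.2 and 13.7 CPM. Ebp, a sterol isomerase, was the enzyme with a negative value, -0.18 (SE 0.96), which became 0.35 in limma-voom. Ebp and Nsdhl, which had 2.06 (SE 1.97), lie on the X chromosome. The paper reports that most X-linked genes regained paternal expression only in Epi precursors. The part of X dosage in the PrE over Epi values of Ebp and Nsdhl was not tested.

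**Figure D5:**
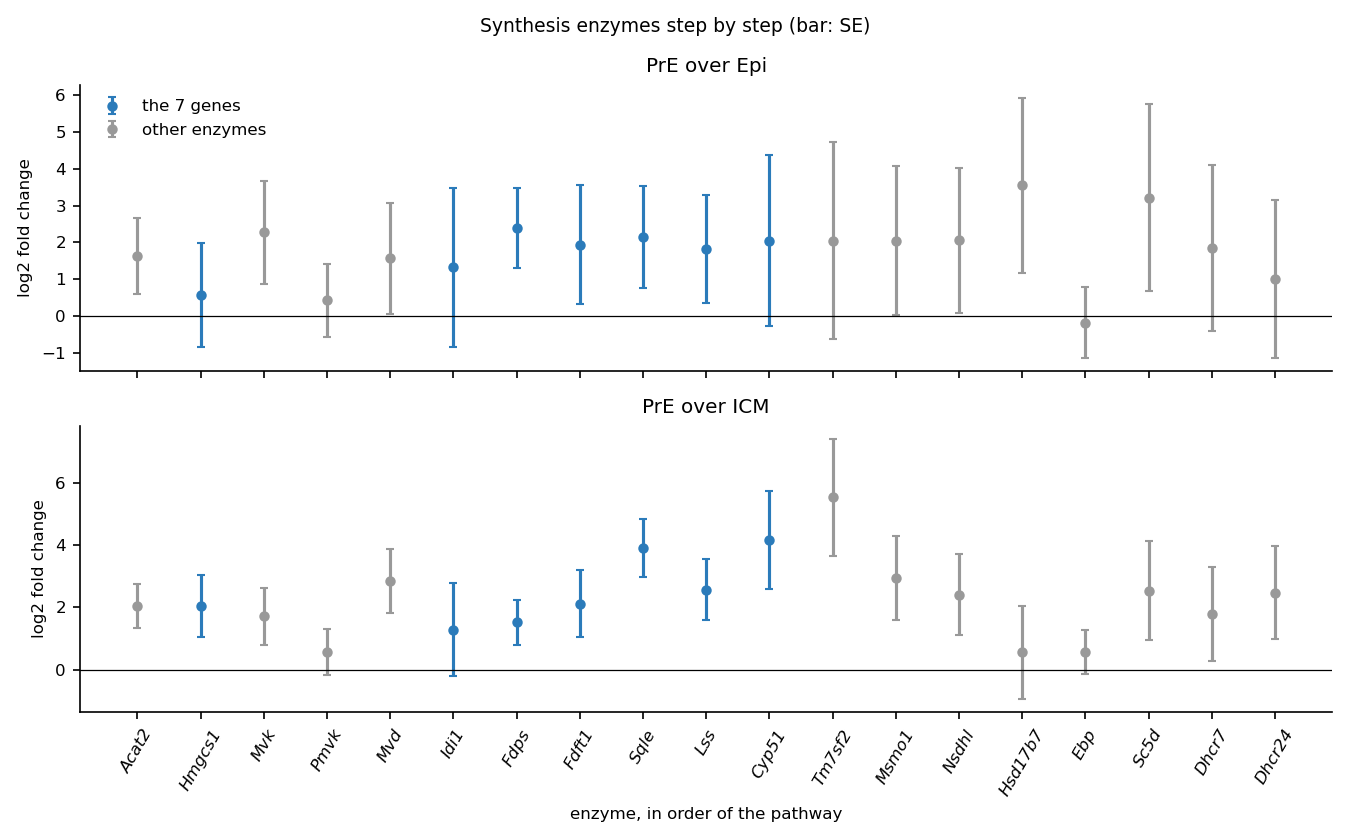
Fitted log2 fold change with its SE for 19 enzymes in the order of the pathway, PrE over Epi above and PrE over ICM below, with the 7 genes in blue and 12 further enzymes in grey. In PrE over Epi 18 of 19 enzymes are above 0, all but Ebp (Hmgcs1 turns negative and Ebp positive in limma-voom), and in PrE over ICM Tm7sf2, Cyp51 and Sqle reach farthest.

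Of 5 genes tested from the uptake list, 1 had a positive log2 fold change of PrE over Epi. This was Npc2, which carries cholesterol out of lysosomes, at 1.24 (SE 0.70). Within embryo 14 the CPM of Npc2 hardly differed, with 255.4 for PrE cells and 253.1 for Epi cells. PrE embryos 15 and 16 reached 775.5 and 459.2, while Epi embryo 17 had 166.7. The list also holds Mylip, which acts against uptake, so the count of signs gives no direction of uptake. For Scarb1, Npc1 and Mylip the SE was above the size of the fold change. Npc1 stood at 16.5, 6.13 and 11.1 CPM in PrE and at 10.3 and 36.7 CPM in Epi. Lrp1 had -4.92 (SE 3.5), with 348 reads in the Epi cell of embryo 17 and 20 in the Epi sum of embryo 14. Among 6 genes of regulation 5 were positive. Srebf2 stood at 83.4, 49.2 and 70.3 CPM in PrE and at 37.6 and 29.2 CPM in Epi, with no overlap in CPM. On mean RPRT it overlapped, at 8.84 in PrE embryo 15 and 13.2 in Epi embryo 14. Its log2 fold change was 1.02 (SE 1.43) for PrE over Epi and 2.35 (SE 0.99) for PrE over ICM. Srebf1, its paralogue of fatty acid synthesis, had 1.5 (SE 1.72) and Insig1, which holds both factors in the membrane when sterol is plentiful, had 0.93 (SE 1.55) in PrE over Epi. Stard4 stood at 70.2, 6.78 and 5.11 CPM in PrE, at 0.0617 and 0.218 CPM in Epi from 5 and 2 reads, and at 0 to 0.186 CPM in ICM. Of the genes of efflux and storage, Soat1, which esterifies cholesterol, stood at 49.1, 0.289 and 15.9 CPM in PrE and at 0.160 and 0.327 CPM in Epi, and Abcg1, an exporter, stood at 0.0359, 0 and 0.109 CPM in PrE and at 2.97 and 15.6 CPM in Epi. Of the 29 genes 0 passed in edgeR in PrE over Epi, in PrE over ICM or in Epi over ICM. At an unadjusted p under 0.05 there were 3 (10.3%), 7 (24.1%) and 2 (6.9%), against 7.66%, 9.21% and 7.27% of all genes.

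In ICM over TE 1 of the 29 genes (3.45%) passed in edgeR, against 4.23% of all genes. It was Mvd, which makes isopentenyl diphosphate. It stood at 47.6, 24.7 and 562 CPM in the TE cells and at 0 to 22.2 CPM in the 7 ICM sums, without overlap, with a log2 fold change of -4.06 (SE 1.04, adjusted p = 0.0371 in edgeR). The highest value of Hmgcs1 and Mvd in TE was that of the same cell, in embryo 5. Without embryo 5 Mvd did not pass, at -1.53 (adjusted p = 0.43 in edgeR). It also did not pass without embryo 8, 9, 10 or 12 (adjusted p of 0.0566 to 0.0614 in edgeR) or in limma-voom (adjusted p = 0.202).

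The genes whose pattern was most like that of the 7 were ranked by Pearson's r over the 15 sums, between their log2(CPM + 1) and the mean of the standardised values of the 7. Outside the 7, Msmo1, a methyl sterol oxidase that acts after Cyp51, came first of 12592 genes with r = 0.885. It stood at 145, 26.9 and 4.02 CPM in PrE and at 23.7 and 4.68 CPM in Epi. Pnrc1 (0.883), Lpin1 (0.864), which encodes a phosphatidate phosphatase, Tspan5 (0.86), Sdhd (0.84), which encodes a subunit of succinate dehydrogenase, and Mdm1 (0.84) followed. These values describe sums that share embryos and depth in part. Within the 7, each against the mean of the other 6, r was highest for Sqle (0.798) and Lss (0.757), while Idi1, Fdps, Fdft1 and Cyp51 lay between 0.482 (Fdps) and 0.669 (Idi1), and it was -0.0498 for Hmgcs1. The entry enzyme thus followed the other steps least over these sums.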

How the data were processed

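RNA of 40 cells was amplified from the 3′ end. The authors filtered reads, aligned them with TopHat2 2.1.0 to mm10 and counted reads per gene with HTSeq 0.6.1, and deposited the counts without normalization. RPRT, a signal, was made by the authors from reads, retrotranscribed length and depth, and the deposited allelic ratios are a fraction (paternal over all informative reads). Counts were summed per embryo and class. The sums were fitted with edgeR 4.0.16 under R 4.3.3, after filtering by class and TMM scaling, with the quasi-likelihood F test and Benjamini-Hochberg adjustment over 12599 genes, and the SE of a fold change was taken from the root of F. Alternatives used limma 3.58.1, DESeq2 1.42.0, other scaling, filters and samples. Limma took embryo as a random block (correlation 0.187), since embryos 4 and 14 each gave cells to 2 classes. Python 3.11.15 with pandas 2.3.3 was used for levels. The 7 genes and all lists were chosen with earlier results of these data known. The text names the 7 genes, list genes that passed, the 6 with the lowest p in PrE over Epi, 3 regulators and the 6 genes of most similar pattern; 2 further genes of the list and the rule are not reported here and were left out of its counts. Ebp, Nsdhl, Tm7sf2, Scarb1, Npc1, Mylip and Lrp1 are named outside this rule, after their values were seen.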

Additional observations from a re-analysis of the deposited data

How the results depend on the processing

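No gene of the 7 was called in PrE over Epi or in Epi over ICM under any alternative run, where DESeq2 gave no adjusted p for Cyp51 in any comparison. In PrE over ICM 1 was called with DESeq2 and 2 with limma-voom, with or without embryo as a replicate block. In ICM over TE 2 were called with DESeq2, 1 with the size factors of DESeq2 in edgeR, and 0 to 1 when an embryo was left out (Lss without embryo 2). The count of genes not overlapping in embryo 14 went from 3 to 6 without the shallow cells, an alternative chosen after seeing the data. For all genes, the edgeR fit called 0, 0, 1 and 533 in PrE over Epi, PrE over ICM, Epi over ICM and ICM over TE, where DESeq2 called 415, 352, 500 and 2743 and limma-voom 239, 251, 240 and 429. The scaling moved the median of all genes in ICM over TE from 0.70 to 1.09 without TMM and to 0.17 with the size factors of DESeq2 in edgeR. The cause of these differences was not tested.

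Of the fold changes of the 7 genes under alternatives to the edgeR fit, 485 stayed on their side of 0 and of the threshold, 9 came to pass it and 20 changed sign. Hmgcs1 in PrE over Epi was -0.71 in limma-voom, -0.46 with embryo as a replicate block, -2.32 on RPRT and -0.92 to 1.14 when an embryo was left out, and -0.51 in PrE over ICM on RPRT. Idi1 in Epi over ICM was 0.0035 in DESeq2, 0.0036 with its size factors, 1.57 in limma-voom, 1.35 with the replicate block, 0.67 on RPRT and -1.07 to 0.75 when an embryo was left out. Idi1 was -0.81 to 2.07 in PrE over ICM when an embryo was left out, and on RPRT it changed sign with a pseudocount of 0.1 in place of 1, to -0.18 in PrE over Epi and -0.16 in ICM over TE. In Epi over ICM without single embryos Fdft1 was -0.29 to 0.53 and Lss -0.57 to 1.44, and Lss was -0.06 on RPRT. Cyp51 in ICM over TE was 0.38 in the cells of the earlier study and -1.73 to 4.65 without single embryos. In PrE over Epi Ebp was 0.35 in limma-voom, 0.41 with the replicate block and -0.83 to 0.63 without single embryos, and Insig1 was -0.36 on RPRT. The log2 fold changes above are of the first class over the second. Mvd in ICM over TE lost its call in 11 of 18 alternatives, without a change of sign.

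The limits are few embryos (3 PrE and 2 Epi, 1 of the latter from a single cell), the concentration of the high levels in embryo 14, TE cells only from the earlier study, and 1 or 2 reads of Lss, Idi1 and Cyp51 in 2 of the 3 TE cells each.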
